A study of Mus musculus with 3 samples.

Results

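Slc1a2, Slc1a3, Glul, Slc6a11, Aqp4, Kcnj10 and Slc4a4 are the genes through which astrocytes clear glutamate and GABA and move water, potassium and bicarbonate. These 7 genes, of 31053 in the matrix, were chosen by their symbols and then followed across cell classes, and in astrocytes with and without a transcript of Agt, the angiotensinogen gene. They were measured by single-cell RNA sequencing of mouse brain in 3 samples, with 1 library per condition. The samples were a healthy control, ischemic stroke made by occlusion of the middle cerebral artery with a suture followed by reperfusion, and hemorrhagic stroke made by injecting collagenase IV into the right striatum. The labels give the strain as C56BL6 and the age as 10 weeks for all 3. Each library was made from the dissociated tissue of several animals, so it carried no spread between mice.

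The deposited counts are unique molecular identifiers (UMIs), each standing for 1 captured RNA molecule read near its 3′ end. Cells of the 3 libraries were told apart by a barcode suffix, but no label or method read here says which suffix stands for which condition. No comparison between conditions was therefore made, and libraries are named 1, 2 and 3 by suffix. Library values show how far a level varied and are not replicates. Libraries 1, 2 and 3 held 10140, 15190 and 10638 barcodes with median counts of 5733, 5326.5 and 5730.5 UMIs. After filtering, 34267 cells with at least 500 UMIs and at most 30% mitochondrial UMIs were kept. A cell was an astrocyte if it had a UMI of at least 4 of the 5 markers Gja1, Ntsr2, F3, Atp1b2 and Aldoc and less than 0.5% of its UMIs on the C1q genes, which mark microglia. The gate found 312 astrocytes, 0.91% of the cells, with a median of 3765 UMIs. They numbered 72, 78 and 162 in libraries 1, 2 and 3. Of them, 64 also met the gate of another class, most often that of mature oligodendrocytes, with 40 cells, and that of oligodendrocyte precursor cells (OPCs), with 14. There were 110 barcode sequences that occurred in more than 1 library, and 0 were those of astrocytes in more than 1 library.

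Astrocytes wrap synapses and blood vessels. Glutamate released by neurons is taken up by GLT-1, encoded by Slc1a2, and GLAST, encoded by Slc1a3, both driven by the sodium gradient, and glutamine synthetase, encoded by Glul, turns it into glutamine that returns to neurons. GAT-3, encoded by Slc6a11, takes up GABA. Aquaporin-4, encoded by Aqp4, is the water channel of the endfeet around vessels, the inward rectifier Kir4.1, encoded by Kcnj10, carries potassium released by active neurons, and the cotransporter NBCe1, encoded by Slc4a4, moves sodium and bicarbonate.

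Upstream sequences are shown for the 2 genes whose level differed most between astrocytes with and without Agt, Slc6a11 and Slc4a4, and for Slc1a3, whose level differed little. The RefSeq promoter table of GRCm38.p6 held entries for 6 of the 7 genes, all but Aqp4, with 7 start sites in all, 2 of them for Slc4a4. Of these 7 windows of 250 bases before a start, 4 overlap no annotated exon, and 3 of the 4 are printed 5′ to 3′ on the gene's strand, with capitals for the only motif found. They are chr6:114130991-114131240 (plus strand) for Slc6a11, chr5:89027716-89027965 (plus strand) before an internal start of Slc4a4, and chr15:8710808-8711057 (minus strand) for Slc1a3.
Slc6a11: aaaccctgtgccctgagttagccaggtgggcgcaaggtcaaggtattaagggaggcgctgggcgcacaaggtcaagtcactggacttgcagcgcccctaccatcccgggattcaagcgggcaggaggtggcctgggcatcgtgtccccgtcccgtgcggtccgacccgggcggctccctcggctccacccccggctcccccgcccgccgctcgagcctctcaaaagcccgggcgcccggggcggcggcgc
Slc4a4: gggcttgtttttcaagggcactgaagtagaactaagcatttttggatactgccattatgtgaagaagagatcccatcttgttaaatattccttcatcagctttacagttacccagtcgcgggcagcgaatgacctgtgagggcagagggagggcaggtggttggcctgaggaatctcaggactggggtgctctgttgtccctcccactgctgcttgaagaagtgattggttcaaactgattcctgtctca
Slc1a3: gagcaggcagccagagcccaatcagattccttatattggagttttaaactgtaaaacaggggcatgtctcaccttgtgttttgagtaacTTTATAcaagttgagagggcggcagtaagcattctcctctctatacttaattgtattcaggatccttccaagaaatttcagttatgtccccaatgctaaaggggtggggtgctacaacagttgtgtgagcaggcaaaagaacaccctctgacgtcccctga
Both strands were searched for TTGGCA (bound by NFI factors), ACAAAG (SOX factors), GTGGGAA (RBPJ, the Notch effector) and TATAAA (the TATA box), none of which contains another. Of 32851 windows of the same length in the table, 12.3% held TTGGCA, 16.5% ACAAAG, 5.42% GTGGGAA and 12.4% TATAAA. The only match in the 7 windows was a TATA box on the opposite strand of Slc1a3, which begins at position -161 from the start. The windows differ in base composition. The one of Slc6a11 has 71.2% G and C with 25 CG pairs, those of the internal Slc4a4 start and of Slc1a3 have 48.8% and 44.8% with 3 and 2 CG pairs, and the median of all windows is 52.4% with 6 CG pairs.

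In GRCm38, the build the files use, GENCODE M21 places Slc1a2 on chromosome 2 at 102658659 to 102790784, Slc1a3 on chromosome 15 at 8634124 to 8710764, Glul on chromosome 1 at 153899944 to 153909723 and Slc6a11 on chromosome 6 at 114131241 to 114249952. Aqp4 lies on chromosome 18 at 15389496 to 15410982, Kcnj10 on chromosome 1 at 172341210 to 172374085 and Slc4a4 on chromosome 5 at 88886818 to 89239653. All are protein-coding genes at different places in the genome.

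Levels are given as CPM, the UMIs of a gene per 1000000 UMIs of all cells of a class, with an exact Poisson 95% interval that covers counting error only. Among the 16 classes with at least 50 cells, 5 of the 7 genes were highest in astrocytes. The exceptions were Glul and Kcnj10, which were higher in mature oligodendrocytes. No share over all genes is given beside this count, which describes the 7 genes only. Against all other classed cells pooled, the same 5 genes were at least 4-fold higher in astrocytes after 10 CPM was added to both sides, while 2.4% of all 17195 genes tested passed this fold. The median fold of the 7 genes was 38.3 and that of all genes 1.06.

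**Figure D1:**
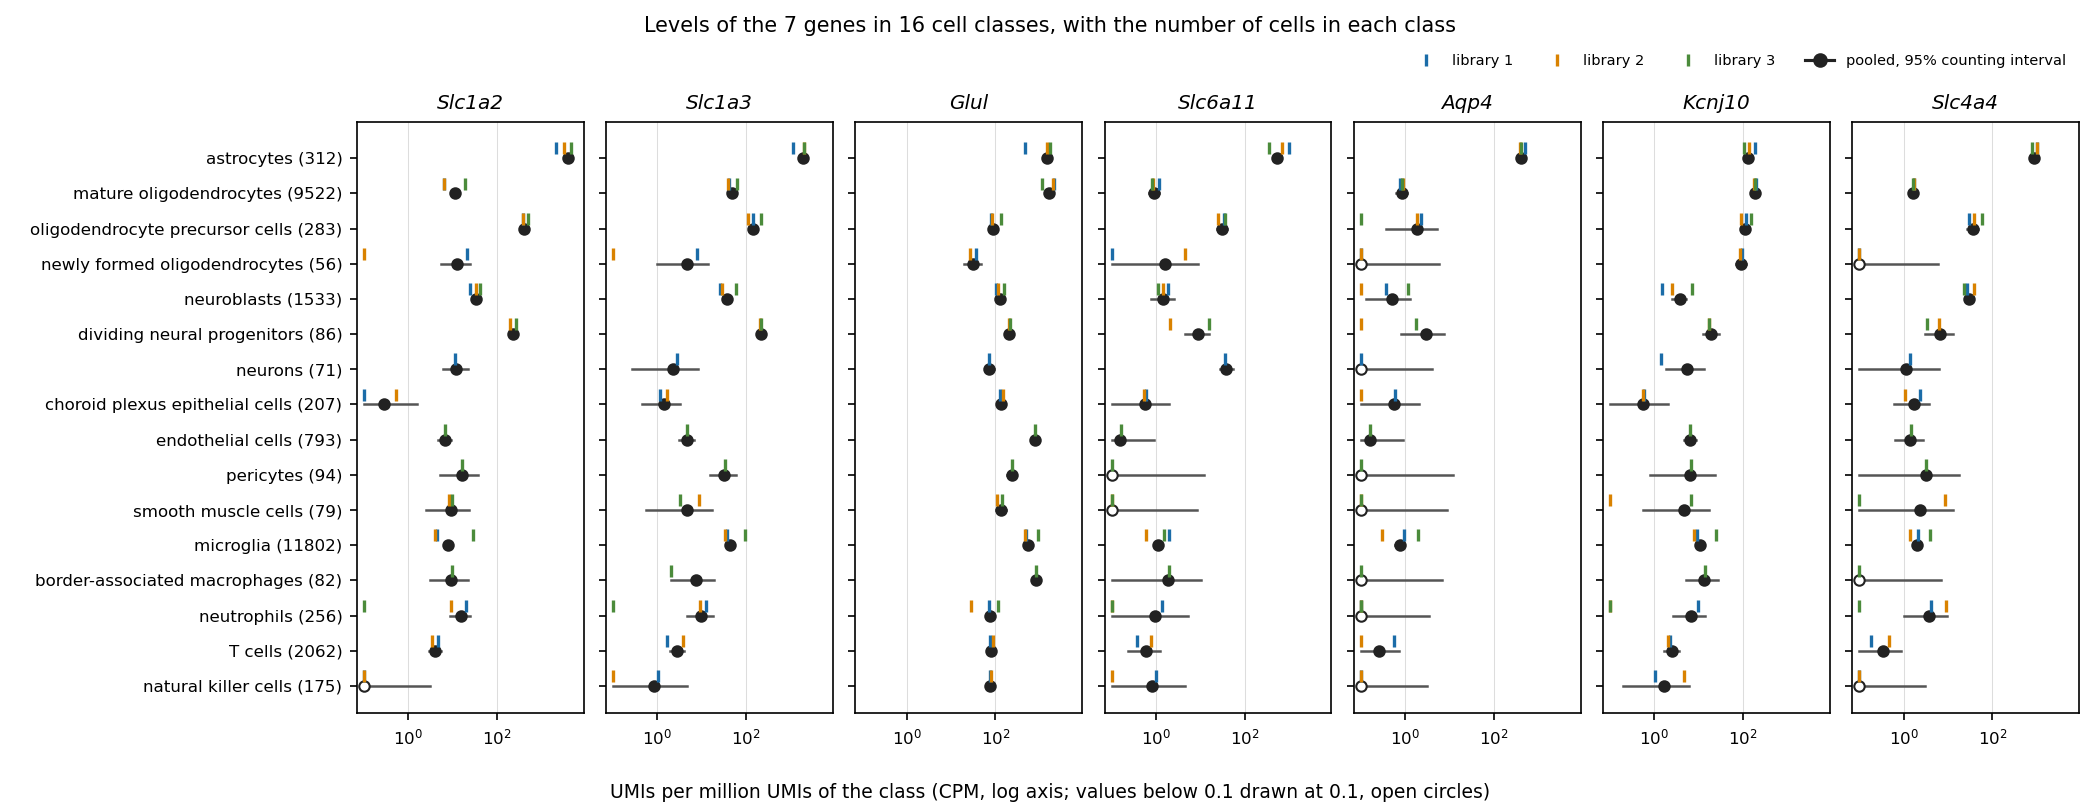
Levels of the 7 genes in CPM (log axis) for each of 16 cell classes. Circles are the pooled cells with 95% counting intervals and ticks are libraries with at least 20 cells of the class. Slc1a2, Slc1a3, Slc6a11, Aqp4 and Slc4a4 have their highest value in astrocytes, and Glul and Kcnj10 in mature oligodendrocytes.

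Of the glutamate carriers, Slc1a2 reached 3939 CPM in astrocytes (95% interval 3843 to 4037) and was detected in 98.1% of them. Its level was 2139.8, 3233 and 4750.3 CPM in libraries 1, 2 and 3. OPCs came next with 405 CPM, followed by dividing neural progenitors with 236 CPM, and neither range over libraries overlapped that of astrocytes. Astrocytes held 9.73 times the level of OPCs (95% interval 8.99 to 10.6). The order below them was neuroblasts with 33.6 CPM, followed by 12 classes with 16.1 CPM or less, in which most neighbours overlapped over libraries. T cells, which should lack the gene and were used as the measure of free RNA, had 4.06 CPM and a UMI in 1.55% of the cells at a median depth of 4973.5 UMIs. Only 17 of the 2062 T cells came from library 3, so this measure covers libraries 1 and 2. The OPC value was thus far above free RNA, with a UMI in 74.9% of the cells at a median of 5704 UMIs. After each cell was thinned to 1000 UMIs, the share with a Slc1a2 UMI was 88.7% in astrocytes, 31.1% in OPCs, 18.6% in dividing neural progenitors and 0.487% in T cells.

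Slc1a3 reached 1875 CPM in astrocytes (95% interval 1808 to 1943) and was found in 95.5% of them. By library it was 1167, 2009 and 2049.5 CPM. Dividing neural progenitors had 213 CPM and OPCs 141 CPM, with overlapping ranges over libraries, so the order of these classes was not settled. Astrocytes stood 8.80 times above the dividing progenitors (95% interval 7.79 to 9.97). Mature oligodendrocytes followed with 48.7 CPM and microglia with 43.9 CPM. A Slc1a3 UMI was found in 23.3% of mature oligodendrocytes and 28.3% of microglia, against 1.12% of T cells. The level in microglia was 36.3, 34.1 and 94.6 CPM in libraries 1, 2 and 3.

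Glul was the least restricted. It stood at 1431 CPM in astrocytes (95% interval 1373 to 1490) and 1645 CPM in mature oligodendrocytes (95% interval 1635 to 1655), and 89.7% and 92.5% of these cells had a UMI. By library the astrocytes had 454, 1431 and 1737 CPM and the mature oligodendrocytes 2079.95, 1967 and 1110.5 CPM, so the ranges overlapped and library 3 had the opposite order from libraries 1 and 2. When the 64 astrocytes that met another gate were left out, astrocytes had 1695 CPM and came first in the pooled cells. In libraries 1 and 2 they stayed below the mature oligodendrocytes. They had 741 CPM with Agt and 469 CPM without in library 1, and 1700 and 1451 CPM in library 2. In the pooled cells, border-associated macrophages followed with 821 CPM, endothelial cells with 788 CPM and microglia with 540.4 CPM. Library 3 held 76 of the 82 border-associated macrophages and 773 of the 793 endothelial cells, but 2333 of the 11802 microglia. Within library 3 microglia were the highest of these classes, at 896 CPM, against 811 CPM in border-associated macrophages and 793 CPM in endothelial cells. In T cells Glul was at 81.1 CPM and 34.1% of the cells had a UMI. Natural killer cells, neutrophils and neurons were close to T cells, at 74.8, 76.0 and 73.6 CPM.

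Slc6a11 was at 549 CPM in astrocytes (95% interval 513 to 586), and 73.1% of them had a UMI. Its level by library was 1003, 714 and 349 CPM, the reverse of the order of Slc1a2. Neurons, of which the dissociated tissue gave 71, had 39.0 CPM and a UMI in 38.0% of the cells at a median of 11756 UMIs, and OPCs had 31.2 CPM. Pooled astrocytes held 14.1 times the level of neurons (95% interval 10.0 to 20.3). The neurons came from libraries 1 and 2 only, while library 3 held 162 of the 312 astrocytes. Within library 1 astrocytes had 1003 CPM and neurons 36.7 CPM, a wider gap than in the pooled cells. The remaining classes had 8.94 CPM or less, and T cells 0.592 CPM.

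Aqp4 had the widest gap to the next class of at least 50 cells. It was at 414 CPM in astrocytes (95% interval 383 to 447), and 71.2% of them had a UMI. The libraries were close together, at 493, 386 and 399 CPM. Among the other classes of at least 50 cells, dividing neural progenitors were highest with 2.98 CPM from 4 UMIs. A UMI was found in 1 of 793 endothelial cells and in 0 of 94 pericytes, which allows a share of pericytes with a UMI of up to 3.19%.

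Kcnj10 was a gene of the whole oligodendrocyte lineage as well as of astrocytes. Mature oligodendrocytes had 182 CPM (95% interval 178 to 185), astrocytes 127 CPM (95% interval 110.2 to 146), OPCs 110.5 CPM and newly formed oligodendrocytes 91.3 CPM. The astrocyte libraries ranged from 107 to 181 CPM and the mature oligodendrocyte libraries from 173 to 191 CPM, and each of these classes overlapped the next in the order. All 4 were far above T cells, which had 2.45 CPM.

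Slc4a4 reached 877 CPM in astrocytes (95% interval 832 to 924), with 1035, 994 and 786 CPM by library. OPCs had 36.0 CPM and neuroblasts 29.3 CPM, with overlapping ranges over libraries. Both lay above the 0.338 CPM of T cells, and 16.3% of OPCs and 12.4% of neuroblasts had a UMI against 0.194% of T cells.

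Free RNA from 1 source keeps its genes in 1 ratio within a library, so each gene was set against Slc1a2 in the same cells. In astrocytes there were 0.476 Slc1a3 UMIs for each Slc1a2 UMI, and in OPCs 0.349. In microglia the ratio was 5.59 (95% interval 5.20 to 6.01), and in mature oligodendrocytes 4.21 (95% interval 3.88 to 4.58). By library the ratio was 0.545, 0.621 and 0.431 in astrocytes, 8.29, 8.48 and 3.30 in microglia and 6.33, 6.32 and 3.21 in mature oligodendrocytes. In every library both classes thus had more Slc1a3 per Slc1a2 UMI than the gated astrocytes. The same held for Kcnj10 in OPCs, at 0.273 against 0.0322 in astrocytes, and for Slc4a4 in neuroblasts, at 0.872 against 0.223.

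The low values of microglia were different for Slc6a11, Aqp4 and Slc4a4. Their ratios to Slc1a2 in microglia were 0.144, 0.0951 and 0.255, close to the 0.139, 0.105 and 0.223 of astrocytes, and the 3 counting intervals include the astrocyte value. The ratio of Slc6a11 was highest in library 1 and lowest in library 3 in both classes, at 0.469, 0.221 and 0.0735 in astrocytes and 0.439, 0.148 and 0.0519 in microglia. The UMIs were not spread evenly, with 873 UMIs of Slc1a2 in 315 of 11802 microglia and 126 of Slc6a11 in 70. Free RNA and droplets that hold 2 cells cannot be told apart here, and these values are not read as expression in microglia.

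**Figure D2:**
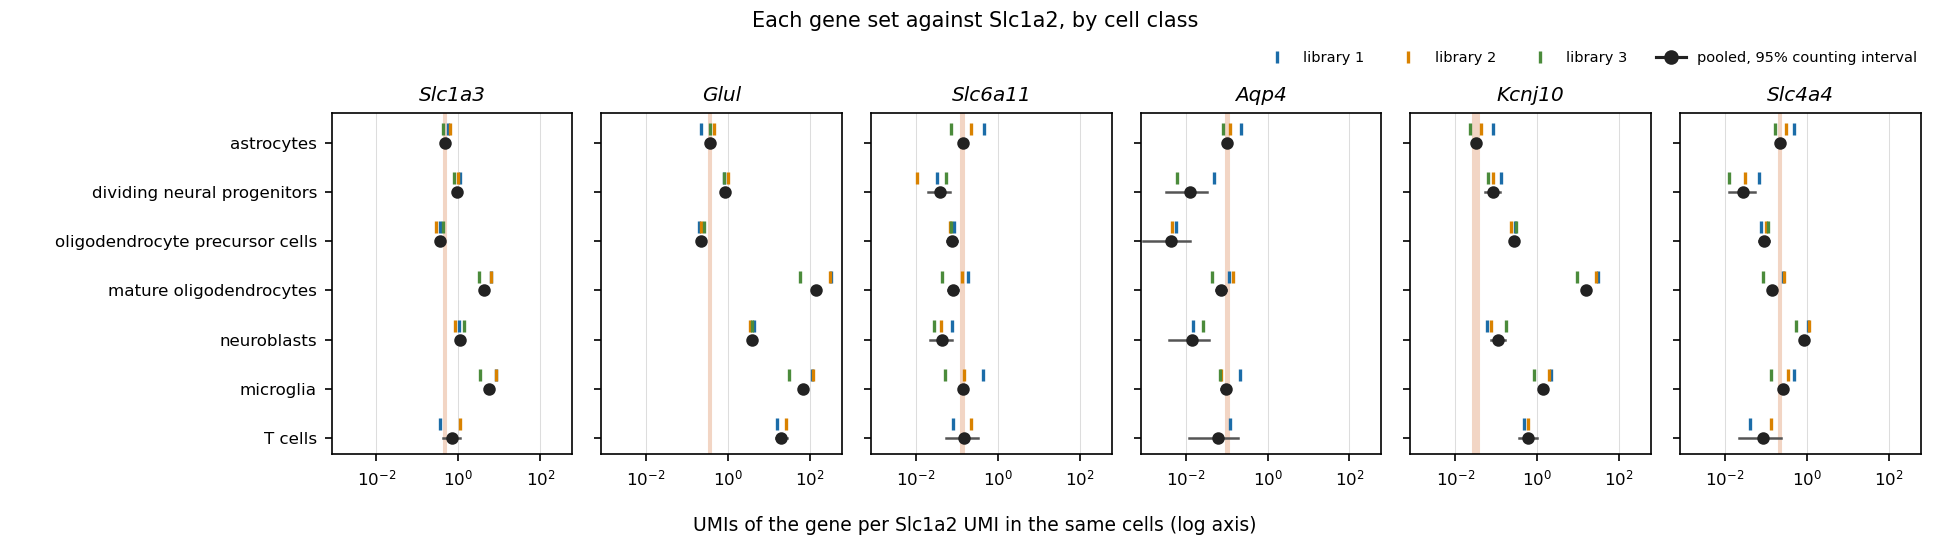
UMIs of each gene per Slc1a2 UMI in the same cells (log axis) for 7 classes. Circles are the pooled cells with 95% counting intervals, ticks are libraries with at least 10 Slc1a2 UMIs and a ratio above 0, and the shaded band is the interval in astrocytes. Slc1a3, Glul and Kcnj10 of microglia and mature oligodendrocytes lie to the right of the band, and Slc6a11, Aqp4 and Slc4a4 of microglia have intervals that reach it.

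Within the mature oligodendrocytes and the microglia, levels also varied, in subsets chosen after their values were seen. The 692 mature oligodendrocytes with at least 2 UMIs of Klk6, a peptidase gene, and none of Il33 had 226 CPM of Kcnj10 and 65.1 CPM of Slc1a3. The 4824 with at least 2 UMIs of the cytokine Il33 and none of Klk6 had 183 and 44.0 CPM. Both genes were higher in the Klk6 cells in all 3 libraries, while Glul was lower in them, at 1477 against 1907 CPM, also in all 3. Median depths were 9623 and 6389 UMIs. Microglia with at least 2 UMIs of Cst7, a protease inhibitor of activated microglia, had 386 CPM of Glul, and those without Cst7 had 848 CPM. In library 1 the values were 381 and 798 CPM and in library 2 they were 386 and 806 CPM. Library 3 held only 9 of the 5426 Cst7 cells and had the opposite order, with 1240 and 895 CPM. Median depths were 12277.5 and 5639 UMIs, and a Glul UMI was found in 86.5% and 87.9% of the cells. All 7 genes had a lower pooled CPM in the Cst7 cells, with ratios from 0.213 for Aqp4 to 0.5 for Slc6a11. These ratios mix libraries, since library 3 held 2258 of the 5319 cells without Cst7. All 7 were also lower within libraries 1 and 2, but not always by as much. Slc1a2, with a pooled ratio of 0.216, was at 3.61 against 6.47 CPM in library 1 and 3.81 against 4.94 CPM in library 2. In library 3 Aqp4 and Kcnj10 had the opposite order.

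Single astrocytes nearly always carried several of the genes. All 7 had a UMI in 77 cells, 24.7%, and 6 of the 7 in 110 cells. At the low end, 6 astrocytes had UMIs of 2 of the genes, 1 had UMIs of 1 gene and 1 had none. In the 300 astrocytes that could be thinned to 1000 UMIs, the mean number of genes found was 3.91, against 0.911 in mature oligodendrocytes, 0.689 in OPCs and 0.0979 in T cells. Over these 300 cells the variance of the thinned count divided by its mean was 3.38 for Slc1a2, 2.56 for Slc6a11 and 1.78 for Slc4a4, and 1.09 for Kcnj10. Of the 21 pairs of genes, Slc6a11 and Slc4a4 went together most, with Spearman's rho of 0.41 over 300 cells of 3 libraries, and Slc1a2 and Slc6a11 had a rho of 0.0482.

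By Pearson's r of log2(CPM + 10) over 16 classes, the genes with the pattern most like each member were found among genes that are no members. Slc1a2 was nearest to Rfx4 (r = 0.975), a transcription factor gene, and to Hes5 (r = 0.969), a Notch target. Slc6a11 was nearest to the mitochondrial glutamate carrier gene Slc25a18 (r = 0.995), Aqp4 to Hapln1 (r = 0.995), a gene of the extracellular matrix, and Slc4a4 to Scara3 (r = 0.95). Glul was nearest to Selenop (r = 0.887), which codes for a selenium carrier, and Kcnj10 to Wscd1 (r = 0.963), both highest outside astrocytes. Agt was the third gene for Aqp4 (r = 0.994). The classes share libraries and depth, and these values are descriptions over 16 points.

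The astrocytes were then split by Agt. A UMI of Agt was found in 157 of the 312 cells, 50.3% (exact 95% interval 44.6 to 56.0%), and 155 had none. The share with Agt was 77.8%, 60.3% and 33.3% in libraries 1, 2 and 3. The cells with Agt had a median of 2977 UMIs against 4793. They were shallower in libraries 1 and 2, at 2344.5 against 8099 and 2303 against 4657 UMIs, and deeper in library 3, at 5184.5 against 4717. They met another gate less often, 12.7% against 28.4%, and had 9.78% mitochondrial UMIs as their median against 8.14%. Of the cells with Agt, 33 had exactly 1 Agt UMI.

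Slc6a11 and Slc4a4 differed most. After 10 CPM was added, 4 of the 7 genes were at least 1.5-fold higher in cells with Agt, and 0 were at least 1.5-fold lower. Of 8601 genes with at least 20 UMIs in astrocytes, 7.12% passed this fold as higher and 12.5% as lower. The 4 were Slc6a11, Slc4a4, Kcnj10 and Aqp4, with folds of 5.01, 2.6, 1.95 and 1.69. Aqp4 did not keep a ratio of 1.5 without library 1 (1.31), with all 5 gate markers (1.38), without cells of another gate (1.46) or below the median depth (1.27). The median fold was 1.69 for the 7 genes and 0.951 for all genes. Cells are not replicates and there is no test here, so the intervals below cover counting error only.

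Slc6a11 had 1009 CPM in cells with Agt and 193 CPM in cells without, a ratio of 5.22 (95% interval 4.42 to 6.19). Its UMIs were found in 90.4% and 55.5% of the cells. In library 1 the levels were 1747 against 45.1 CPM, in library 2 they were 1328 against 122 CPM, and in library 3 they were 519 against 246 CPM. The cells with Agt were higher in every library, and the difference was smallest in library 3. With exactly 1 Agt UMI the level was 379 CPM, between the value of cells without Agt and the 1238 CPM of cells with at least 2.

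Slc4a4 had 1349 CPM with Agt and 512 CPM without, a ratio of 2.64 (95% interval 2.36 to 2.95). By library, cells with Agt had 1764, 1701 and 995 CPM and cells without had 97.7, 313 and 659.9 CPM. The order over libraries was thus opposite on the sides of the split.

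Kcnj10 had 179 CPM with Agt and 86.8 CPM without, a ratio of 2.06 (95% interval 1.55 to 2.77) that rested on 126 and 79 UMIs. In libraries 1 and 2 it was 263 against 75.2 and 234 against 40.5 CPM. In library 3 it was 115 against 103 CPM, and the interval of the ratio, 0.738 to 1.68, includes 1. Aqp4 had 540.2 CPM with Agt and 316 CPM without, a ratio of 1.71 (95% interval 1.46 to 2.0). By library the ratio was 7.0, 1.63 and 1.23, and in library 3 its interval reaches below 1 (0.998 to 1.51).

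The glutamate genes were closer. Slc1a2 was at 3880 CPM with Agt and 3986 CPM without, a ratio of 0.973 (95% interval 0.926 to 1.02). The libraries did not share 1 direction, with ratios of 3.09, 1.0 and 0.94. Slc1a3 had 2085 against 1712 CPM, a ratio of 1.22 (95% interval 1.13 to 1.31), and was higher with Agt in all 3 libraries. Glul had 1508 against 1371 CPM, a ratio of 1.10 (95% interval 1.01 to 1.19), and was higher with Agt in all 3 libraries, by 3.69, 1.28 and 1.11 times. Among cells that met no other gate the pooled ratio was 0.963 while the libraries were at 1.58, 1.17 and 1.13, and after thinning it was 0.733 pooled and 1.04 with the libraries kept apart.

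**Figure D3:**
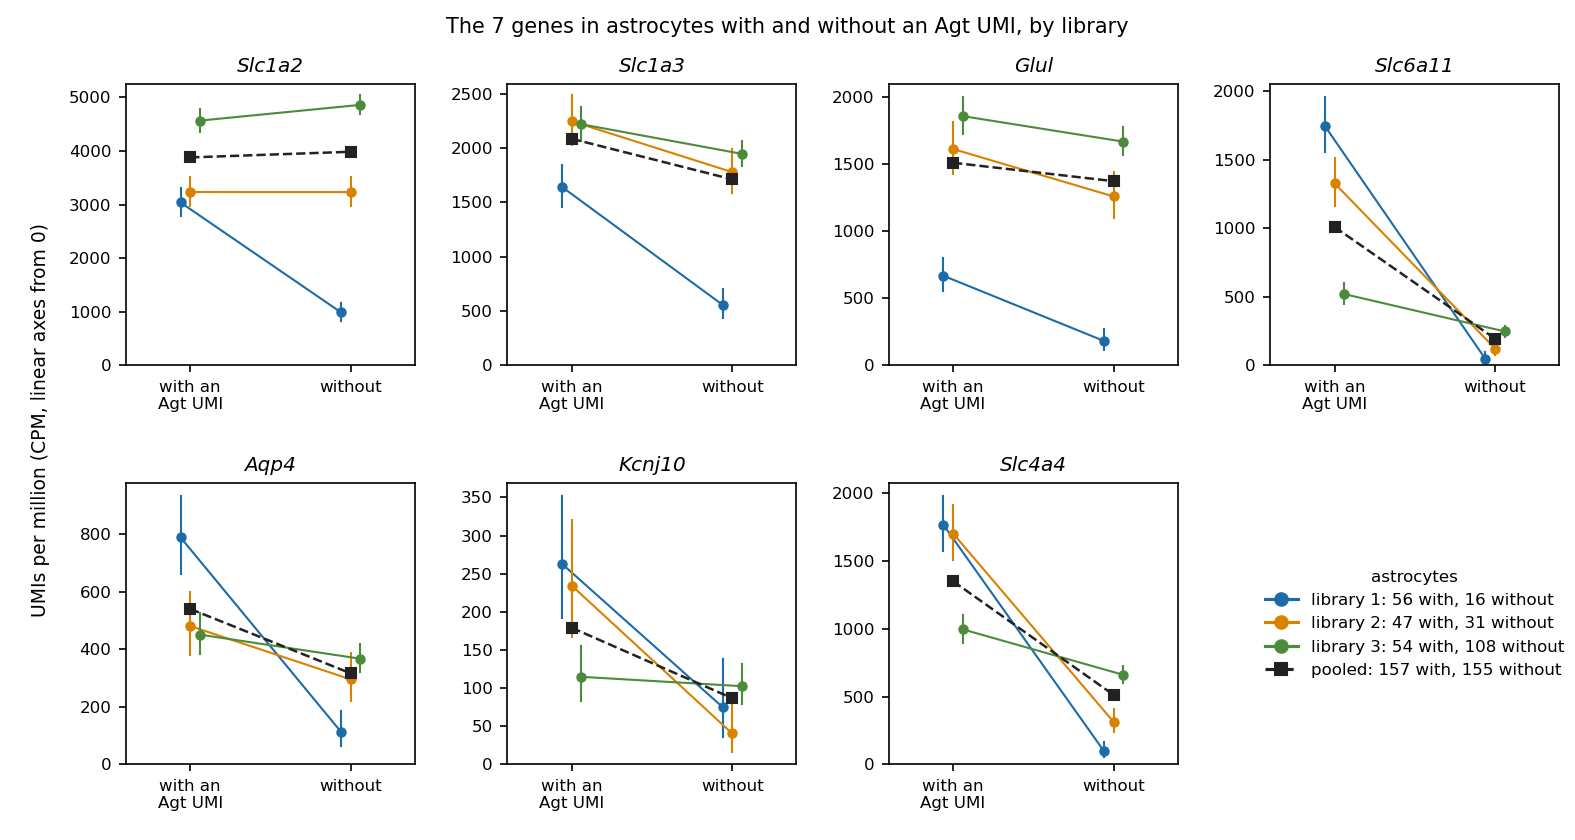
CPM of the 7 genes (linear axes from 0) in astrocytes with and without an Agt UMI. Coloured lines are libraries with 95% counting intervals and dashed lines the pooled cells. Slc6a11 and Slc4a4 are higher with Agt in all 3 libraries, with the flattest line in library 3, while Slc1a2 has separate intervals in library 1, at 3038 and 985 CPM.

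Library 1 held only 16 cells without Agt, with a median of 8099 UMIs against 2344.5 with Agt, and 6 of the 16 met no other gate. All 7 genes were lower there, also Slc1a2, which was at 985 CPM against 3038 CPM. In these 16 cells the summed OPC markers were at 3382 CPM, and in the 56 cells with Agt of the same library at 432 CPM. In the 6 cells without Agt that met no other gate, against 52 with Agt, Slc1a2 was at 2626 against 3809 CPM. Slc6a11 had 93.8 against 2279 CPM there, from 3 and 292 UMIs, and Slc4a4 250.1 against 2287 CPM, from 8 and 293 UMIs. Slc6a11 was detected in 33.3% of the 6 cells and 94.2% of the 52, and Slc4a4 in 50% and 96.2%. The 6 had a median of 2649 UMIs. All 75 of their Vim UMIs lay in 16.7% of them, a single cell, so a pooled level of the 6 can rest on 1 cell. The difference in Slc6a11 and Slc4a4 was also present among cells that met no other gate, where over all libraries their ratios were 5.0 and 2.46.

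The split was also compared at like depth. Among cells at or above the median depth of all astrocytes, the median was 7142 UMIs with Agt and 6986.5 without, and Slc6a11 was 3.04 times and Slc4a4 2.11 times higher with Agt. Below that depth the ratios were 5.33 and 2.37. After thinning to 1000 UMIs, with Agt read again from the thinned counts, Slc6a11 was found in 75.2% of 117 cells with Agt and had 2.07 UMIs per cell, against 0.311 in the 183 cells without. The thinned ratio was 6.64 (95% interval 4.96 to 9.03) for Slc6a11, 2.57 for Slc4a4, 2.27 for Kcnj10 and 1.81 for Aqp4, while Slc1a2 was at 0.753.

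**Figure D4:**
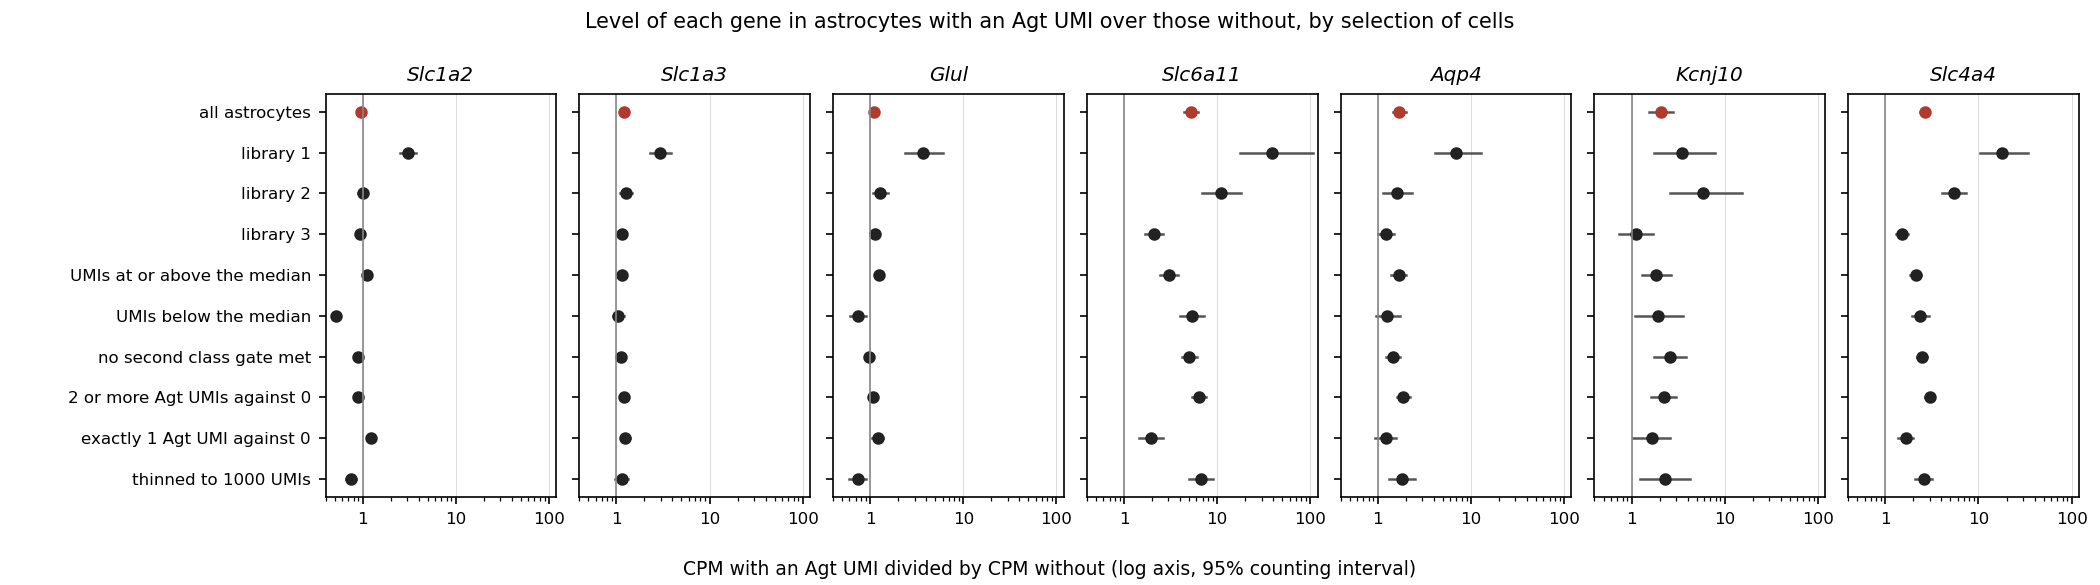
CPM with an Agt UMI divided by CPM without (log axis) for the 7 genes, over all astrocytes and 9 other selections of cells, with 95% counting intervals. Slc6a11 and Slc4a4 lie to the right of 1 in all 10 rows, at 1.96 or more and 1.51 or more, and Slc1a2 lies on both sides of 1.

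Markers of other classes moved with the split in both directions. The summed markers of mature oligodendrocytes were at 3120 CPM with Agt (1274 to 4053 CPM over libraries) and 2061 CPM without (113 to 2648 CPM), with all 5 higher. Each of them was nevertheless detected in fewer cells with Agt, from Mog in 17.2% against 29.7% to Mal in 47.1% against 58.1%, and 1 cell with Agt in library 3 held 535 of the 1483 UMIs there. Those of OPCs were at 112 against 608 CPM (8.20 to 432 against 82.7 to 3382 CPM over libraries), with 0 of 5 higher. Those of ependymal cells were at 112 against 339 CPM, with 2 of 5 markers at 0 in cells with Agt, and 1 cell without Agt in library 2 held 186 of the 217 UMIs there. Those of dividing neural progenitors were at 96.7 against 272 CPM. Microglial markers were at 347 against 290.0 CPM, higher with Agt in libraries 1 and 2 but lower in library 3, at 279 against 313 CPM. Single cells there held 70 of the 102 UMIs with Agt and 60 of the 189 without. The 5 astrocyte markers of the gate were at 7165 against 5270 CPM. The part of these markers in the results was not tested. Neuroblast markers were also higher with Agt in the pooled cells, at 121 against 80.2 CPM with all 5 higher. In library 3 the neuroblast markers were lower with Agt, at 49.2 against 94.3 CPM. Single cells with Agt held 33 of 36, 30 of 31 and 15 of 18 of these UMIs in libraries 1, 2 and 3. Shares of cells with a neuroblast marker were nearly equal or smaller with Agt, from Dlx1 in 2.55% against 2.58% to Dcx in 3.18% against 6.45%. Slc6a11, Aqp4 and Slc4a4 are at 0.928, 0.848 and 1.66 CPM in mature oligodendrocytes. They are at 1.48, 0.492 and 29.3 CPM in neuroblasts and at 1.13, 0.748 and 2.01 CPM in microglia. Kcnj10, which was also higher with Agt, is at 182 CPM in mature oligodendrocytes, 3.69 CPM in neuroblasts and 10.7 CPM in microglia.

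The cells with Agt also differed in genes of region and reactivity, from a list drawn up with earlier results of these data known. Itih3 was at 799 CPM with Agt and 52.7 CPM without. Lhx2, a transcription factor of the forebrain, was at 121 against 190.05 CPM, and Crym, found in astrocytes of the striatum and other regions, at 512 against 787 CPM. Crym was at 17.5 and 15.03 CPM in library 1, from 3 and 2 UMIs, and at 294 against 869 CPM in library 2. In libraries 1 and 2 Lhx2 was at 5.84 and 30.05 CPM with Agt and 82.7 and 168 CPM without. In library 3, where the ratios of Slc6a11 and Slc4a4 were closest to 1, Lhx2 was at 216 and 220.0 CPM and Crym at 842 and 933 CPM. Vim, an intermediate filament of reactive and immature astrocytes, was lower with Agt, at 71.1 against 347 CPM.

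Around the 7 genes, 42 others of the same pathways were followed. Of these, 12 were highest in astrocytes among the 16 classes and 19 reached 50 CPM there. No share over all genes is given beside these counts, nor beside the counts of genes highest in astrocytes by pathway below. They describe the lists only. With Agt, 6 of the 42 were at least 1.5-fold higher, where 7.12% of all genes tested were, and 2 were at least 1.5-fold lower, where 12.5% were. The shares over all genes are for genes with at least 20 UMIs, and the 42 also include genes below that. Among the 6 is Aqp11, with 17 UMIs. Slc1a1 and Slc6a13 are named below after their values were seen. The median fold of the 42 was 1.14, against 0.951 for all genes tested. A listed gene with 0 UMIs, such as Slc6a13, enters this median at a fold of 1.

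In glutamate metabolism, Slc7a11, the cystine and glutamate exchanger, was at 317 CPM with Agt and 109 CPM without. Its highest class was neutrophils, with 1853 CPM. Slc38a1, a glutamine importer, had 22.7 against 122 CPM. It was highest in neutrophils with 179 CPM, and T cells had 149 CPM with a UMI in 48.0% of the cells. The glutamine transporter Slc38a3 had 149 against 156 CPM. Glud1, glutamate dehydrogenase, had 417 against 319 CPM. Glud1, Slc38a3 and the neutral amino acid carrier Slc1a4 were highest in astrocytes. Slc1a1, the carrier EAAT3, was highest in newly formed oligodendrocytes with 367 CPM and had 11.8 CPM in astrocytes. Got1, an aspartate aminotransferase, had 18.5 against 34.1 CPM from 13 and 31 UMIs.

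In GABA handling, the GABA transaminase Abat had 109 against 82.4 CPM. Slc6a13, the carrier GAT-2, had 0 UMIs in astrocytes, which allows up to 1.86 CPM, and was highest in pericytes with 232 CPM.

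Of the endfoot genes, 6 of 8 were highest in astrocytes and 1, Dmd, passed the fold with 195 CPM with Agt and 97.8 CPM without. Dmd codes for dystrophin, whose complex anchors aquaporin-4. Mlc1 and Hepacam, partners in a membrane complex of astrocytes, had 412 against 376 and 425 against 312 CPM. Gpr37l1, a receptor of astrocytes, had 1885 against 1415 CPM. Dtna, which codes for a dystrobrevin, was nearly level, at 327 against 335 CPM.

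In ion handling, Kcnj16, whose channel subunit pairs with Kir4.1, had 48.3 CPM with Agt and 16.5 CPM without, from 34 and 15 UMIs. Kcnk1, a potassium leak channel, had 361 against 433 CPM. Of the 6 other genes of bicarbonate and pH, 0 were highest in astrocytes and 0 passed the fold in either direction, and Car2, a carbonic anhydrase, was at 762 against 602 CPM. Of the other water channels, Aqp9 had 27.0 against 9.89 CPM from 19 and 9 UMIs, and Aqp11 15.6 against 6.59 CPM.

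**Figure D5:**
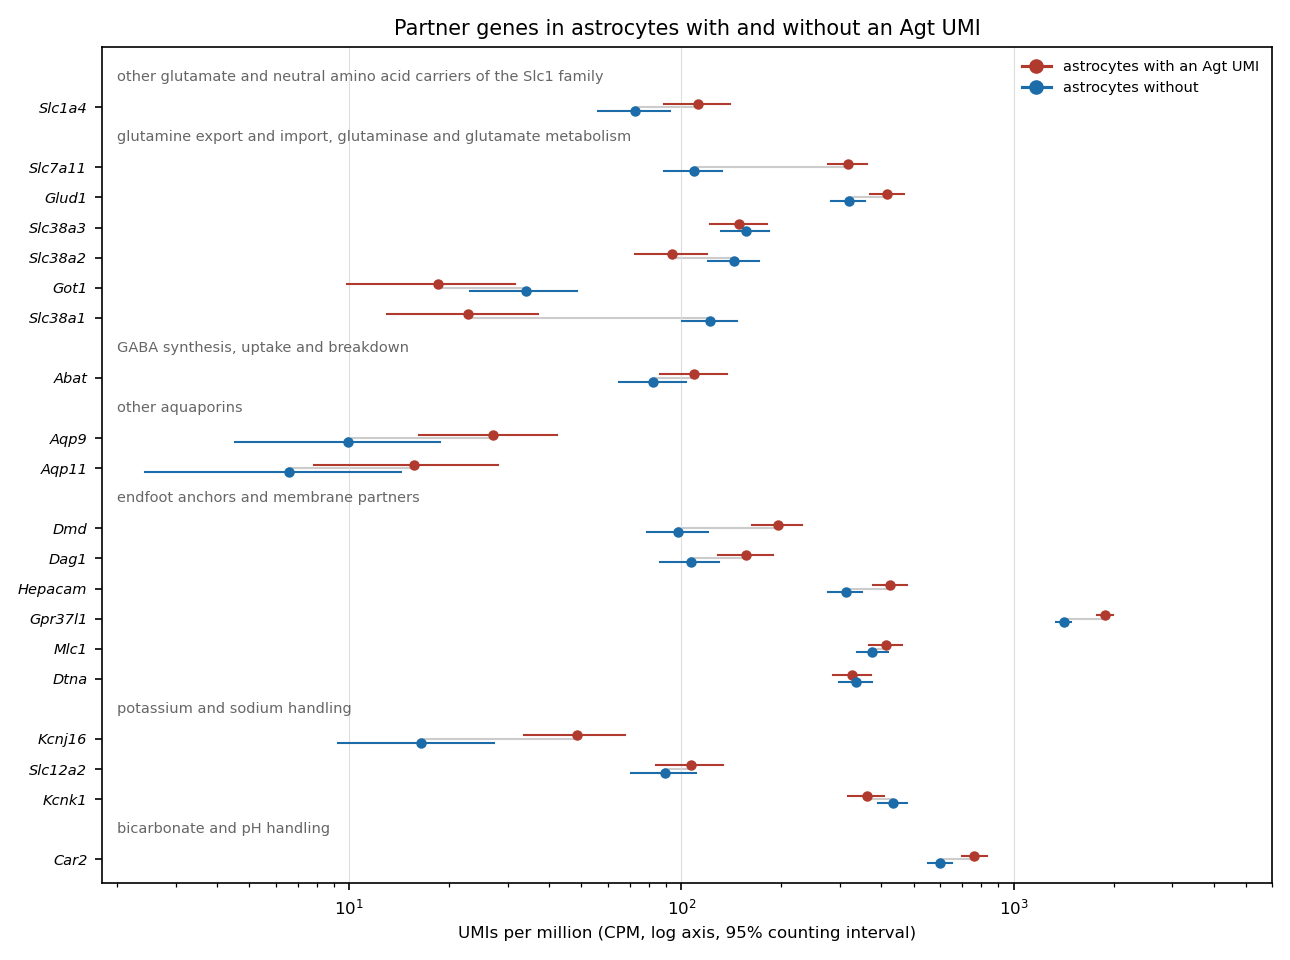
CPM (log axis, 95% counting intervals) in astrocytes with and without an Agt UMI for the genes shown of the same pathways, which reached 50 CPM in astrocytes or a 1.5-fold difference. Slc7a11, Dmd and Kcnj16 are higher with Agt, and Slc38a1 is lower, at 22.7 against 122 CPM.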

How the data were processed

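The authors deposited 1 matrix of whole-number UMI counts per gene and barcode for the 3 libraries, with no normalization, made by Cell Ranger 3.1.0 with STAR on mm10, per the submitters' processing notes. Per the methods of the authors, reads were down-sampled as needed to aggregate the libraries. Here, barcodes with under 500 UMIs (193) or over 30% mitochondrial UMIs (1544) were left out. Classes were gated on at least 4 of 5 raw marker UMIs (3 of 4 for newly formed oligodendrocytes), and 27456 cells of 18 classes were classed. No doublet caller was run. The 1372 cells that met 2 or more gates, none of them the astrocyte gate, were left unclassed as a guard against doublets. Microglia and border-associated macrophages needed at least 0.5% C1q UMIs and all other classes less, so this guard could not act between them. The 64 astrocytes that met another gate were kept and left out as an alternative. Counts were summed to CPM with exact Poisson intervals, shares have exact Clopper-Pearson intervals and ratios exact conditional binomial intervals, all 95%, for counting error only. A count of 0 allows up to 3 counts. Folds were taken on CPM + 10 for genes with at least 20 UMIs, and for the listed pathway genes at any count. Python 3.11.15, NumPy 2.4.6, SciPy 1.17.1, pandas 2.3.3 and Matplotlib 3.10.9 were used, and the steps were tested on simulated data. GENCODE M21 held 99.6% of the identifiers. The named genes were the 7 members, listed pathway and region genes with at least 50 CPM in astrocytes or a 1.5-fold difference with Agt, and the 3 genes most like each member. The members, gates and lists were chosen with earlier results of these data known. Alternatives were the gate, the C1q, UMI, mitochondrial and upper limits, thinning, the scaling, the Agt threshold, leaving out a library and the library as a block. Some genes of the lists enter the counts but are not reported here by name.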

Additional observations from a re-analysis of the deposited data

Results flagged for a closer look

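Classes with under 50 cells were outside the comparisons above, and 8 values in them from over 3 UMIs had counting intervals above that of T cells. Slc6a11 in ependymal cells, from 3 UMIs, was also above, at 14.8 CPM (95% interval 3.06 to 43.4). In 24 ependymal cells, Aqp4 was at 351 CPM (95% interval 274 to 443) and detected in 87.5% of them, Kcnj10 at 153 CPM, Slc1a3 at 129 CPM, Slc1a2 at 49.5 CPM and Slc4a4 at 39.6 CPM. In 19 fibroblasts, Glul was at 967 CPM (95% interval 789 to 1173), Slc1a3 at 516 CPM (95% interval 389 to 672) and Slc4a4 at 46.9 CPM from 5 UMIs. T cells had 0.254 CPM of Aqp4, 2.45 of Kcnj10, 2.79 of Slc1a3, 4.06 of Slc1a2, 0.338 of Slc4a4, 0.592 of Slc6a11 and 81.1 of Glul. No library held 20 cells of either class.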

How the results depend on the processing

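The number of the 7 genes highest in astrocytes stayed between 5 and 6 under 14 alternatives, 2 of them chosen after seeing the data. It too has no share over all genes beside it. The ratio of CPM with an Agt UMI to CPM without stayed above 1 for Slc6a11 (3.0 to 17.4), Slc4a4 (1.93 to 7.91), Kcnj10 (1.6 to 7.79), Aqp4 (1.03 to 4.19) and Slc1a3 (1.05 to 2.92) under 22 alternatives each, 7 of them chosen after seeing the data. Single libraries and the cells with exactly 1 Agt UMI were not among these alternatives, and some of their ratios lay outside these ranges. In library 3 the ratio was 2.11 for Slc6a11, 1.51 for Slc4a4 and 1.12 for Kcnj10, whose interval of 0.738 to 1.68 includes 1. With exactly 1 Agt UMI it was 1.96 for Slc6a11 and 1.66 for Slc4a4. In library 1 it was above the range, at 38.7 for Slc6a11, 18.1 for Slc4a4, 7.0 for Aqp4 and 2.95 for Slc1a3. Of 98 CPM values of the 7 genes in astrocytes under alternatives, 69 moved by more than their counting interval. The ratio fell on both sides of 1 for Slc1a2 and Glul. For Glul the values below 1 are pooled over libraries whose Agt shares differ, and it was above 1 with the libraries as blocks in the 5 fits made. With at least 3 of the 5 markers, 514 astrocytes were found, the ratios were 2.27 for Slc1a2, 2.92 for Slc1a3, 2.13 for Glul, 12.2 for Slc6a11, 4.19 for Aqp4 and 6.44 for Slc4a4, and 1132 genes were 1.5-fold higher and 2732 lower with Agt, against 612 and 1078. With all 5 markers, 195 were found, with 0.851 for Slc1a2, 1.08 for Slc1a3, 0.963 for Glul, 3.6 for Slc6a11, 1.38 for Aqp4 and 2.05 for Slc4a4. With at most 10% mitochondrial UMIs, 172 were found, with 1.17, 1.43, 6.31, 2.39 and 3.59 for Slc1a2, Slc1a3, Slc6a11, Aqp4 and Slc4a4. Without cells of another gate, Slc1a2 was at 0.887, Slc1a3 at 1.11 and Glul at 0.963. Without library 1, Slc1a2, Slc6a11, Aqp4 and Slc4a4 were at 0.922, 3.53, 1.31 and 2.09, and without library 2 Slc6a11 and Slc4a4 were at 4.33 and 2.22. Without library 3, 150 astrocytes were left, with 1.39 for Slc1a2, 1.56 for Slc1a3, 1.44 for Glul, 17.4 for Slc6a11, 2.95 for Aqp4, 4.47 for Kcnj10 and 7.91 for Slc4a4. Thinning gave 0.753, 0.733 and 6.64 for Slc1a2, Glul and Slc6a11, and the mean of per-cell CPM 0.752 and 0.889 for Slc1a2 and Glul. At least 2 Agt UMIs gave 0.884, 6.4 and 2.99 for Slc1a2, Slc6a11 and Slc4a4. At or above the median depth, Slc1a2, Glul, Slc6a11 and Slc4a4 were at 1.11, 1.24, 3.04 and 2.11, and below it Slc1a2, Slc1a3, Glul and Aqp4 at 0.522, 1.05, 0.742 and 1.27. Without cells of another gate and library 1, 190 astrocytes gave 3.59 for Slc6a11, 1.2 for Aqp4 and 2.07 for Slc4a4. Without those cells and library 3, 124 gave 1.07 for Slc1a3, 0.958 for Glul, 11.9 for Slc6a11, 7.79 for Kcnj10 and 5.24 for Slc4a4. Pairing the groups with and without Agt by library, as a block and not as a replicate (Mantel-Haenszel ratio), gave 1.06 for Slc1a2 and 1.22 for Glul. It moved no other gene beyond its interval. The block with all 5 markers gave 0.914 for Slc1a2, 1.12 for Slc1a3, 3.0 for Slc6a11, 1.26 for Aqp4 and 1.93 for Slc4a4, and 4.37 for Slc6a11 and 1.32 for Aqp4 without cells of another gate. With thinning the block gave 0.909 for Slc1a2, 1.33 for Slc1a3 and 7.26 for Slc6a11, and below the median depth 0.61 for Slc1a2, 1.03 for Aqp4 and 2.12 for Slc4a4. Conditions could not be paired, since the barcodes carry none. The precision of Kcnj10 is limited by its 205 UMIs in astrocytes.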

Other observations

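Among the genes with at least 20 UMIs in astrocytes, the 5 with the highest fold with Agt were Ttr, Itih3, Igsf1, Gria1 and Slc6a11. Ttr, the transthyretin gene that choroid plexus epithelium makes in large amounts, had 1295 against 53.8 CPM. Its level with Agt was 228, 5241 and 0 CPM in libraries 1, 2 and 3, and 1 cell held 843 of the 911 UMIs with Agt. Gria1, an AMPA receptor subunit, had 107 against 6.59 CPM, and Igsf1 131 against 2.20 CPM from 2 UMIs. The lowest folds with Agt were those of Prss56, Ccnd1, Hist1h1b, Notum and Tmem212. All 51 UMIs of Tmem212 lay in 1 cell without Agt, and 93 of the 97 UMIs of Hist1h1b without Agt in another. Ccnd1, the cyclin D1 gene, and the histone gene Hist1h1b were at 654 and 699 CPM in the 16 cells of library 1 without Agt, and 23.2 and 1.65 CPM in the cells of library 3 without Agt. The cell with 93 Hist1h1b UMIs is among these 16, so the 699 CPM rests on it. Notum, which codes for an inhibitor of Wnt ligands, had 61 UMIs in 19 cells without Agt and 1 UMI with it.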
